A study of Mus musculus with 6 samples.

Results

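Myc and the genes of ribosome biogenesis were followed as a list of 40 symbols in sorted splenic T cells of mice given rapamycin or saline after bone marrow transplantation. A gene entered when a probe set of the array named it alone, and where a gene had several such probe sets the one with the highest mean over all arrays stood for it. This gave 39 of the 40 genes, out of 19938 genes on the array, and Noc2l was not analysed here. The list mixes the transcription factor Myc with 38 genes that act at successive steps of making a ribosome, and the rule itself uses no difference between the groups. RNA from 6 mice was measured, 1 array per mouse. All were B6D2F1/J hybrids that had been irradiated lethally and rebuilt with B6 marrow freed of T cells. The protocol describes grafts with and without B6 spleen cells and does not say which any one mouse received, nor whether the sorted T cells came from graft or host. Of the mice, 3 received rapamycin by intraperitoneal injection at 1.5 mg/kg on every second day up to day 10, and 3 received phosphate-buffered saline (PBS) on the same plan. Spleens were taken on day 10, and CD3+ cells were collected by flow cytometry, so CD4+ and CD8+ T cells were measured together. Values are log2 expression, all differences are rapamycin minus PBS, and a difference of 1 would be a doubling.

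Ribosome biogenesis is the assembly line of the nucleolus. RNA polymerase I copies the ribosomal DNA into a long precursor, small nucleolar ribonucleoproteins (snoRNPs) mark and modify it, and a succession of helicases, scaffolds and GTPases cuts and folds it into a small and a large subunit. MYC, a transcription factor that binds E-box sequences as a partner of MAX, is induced when T cells are activated and is known to raise many of these genes. The kinase complex mTORC1, which rapamycin inhibits, is known to promote both ribosomal RNA synthesis and the translation of ribosomal proteins, so the pathway sits downstream of the drug's target. The comparison asked whether T cells of treated recipients carry different transcript levels of this machinery.

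The sorted cells carried the T cell transcripts that the label implies. Group means of the T cell receptor subunit gene Cd3e were 12.87 (PBS) and 12.84 (rapamycin), and those of Thy1 were 12.38 and 12.34. Array medians over all 35556 probe sets lay between 6.03 and 6.17, so the deposited arrays do not share one distribution. These medians span more than the shift of the members given next. Centring used another quantity, the median of each array over the 19938 genes, so the medians over all probe sets were not removed. With the arrays centred on the gene medians, 31 of 39 members were higher, with a median of 0.09. Arrays scaled to each other in this way give levels relative to other transcripts, and the amount of RNA or of ribosomes per cell was not measured. In sorted bulk RNA, fewer cells of a type and less RNA per cell also cannot be told apart. With 3 arrays per group, the typical difference had a standard error (SE) of 0.095 log2 over all genes and 0.099 over the 39 members (medians).

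No gene of the list passed the test. With limma's moderated test and Benjamini-Hochberg adjustment over all 19938 genes, 0 of 39 members reached an adjusted p of 0.05, against 0.00502% of all genes, which is 1 gene. The smallest adjusted p among the members was 1. At an unadjusted p under 0.05 the count was also 0 of 39, where 4.67% of all genes had one (1.60% higher and 3.07% lower). The 95% interval of the difference contained 0 for all 39 members. The differences leaned upward all the same: 31 members measured higher and 8 lower with rapamycin, or 79.5% higher against 44.7% of all genes. The median difference was 0.08 over the members and -0.01 over all genes, and 38 of the 39 members lay within 0.2 log2 of no difference. Within-group spread was of the same order as this shift. For 29 of the 39 members the difference was smaller than 1 within-group SD, which also held for 72.7% of all genes, and for 26 members the rapamycin mean lay inside the range of the PBS mice. The lean rested largely on single mice. It fell to 23 of 39 higher and a median of 0.03 without rapamycin replicate 2, and to 24 of 39 and a median of 0.03 without PBS replicate 1, where 44.0% and 42.8% of all genes were higher.

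**Figure D1:**
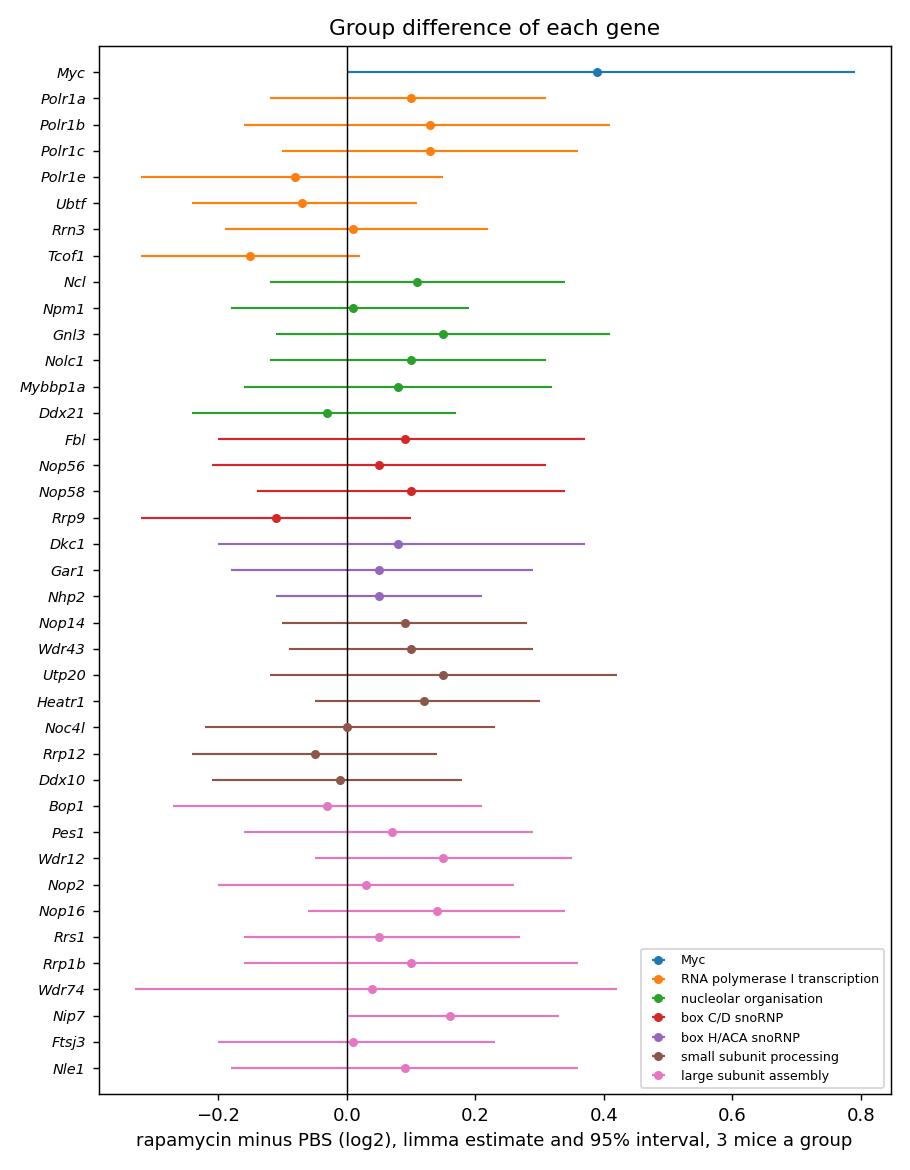
The points are limma estimates of the group difference (log2, rapamycin minus PBS) for the 39 measured genes and the bars their 95% intervals, with 3 mice per group and colours for the step of ribosome biogenesis. All bars include 0; Myc has the largest estimate, at 0.39, and Tcof1 the lowest, at -0.15.

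Myc had the largest difference of the list. It measured 9.54, 9.96 and 9.72 in PBS replicates 1 to 3, and 10.01, 10.51 and 9.87 in rapamycin replicates 1 to 3. The groups overlapped, since rapamycin replicate 3 lay below PBS replicate 2, and rapamycin replicate 2 stood highest by a wide margin. The means were 9.74 ± 0.21 with PBS and 10.13 ± 0.34 with rapamycin (SD, n = 3 each), a difference of 0.39 (SE 0.17) or 1.31-fold. The 95% interval ran from just under 0 to 0.79, with an unadjusted p of 0.0502 and an adjusted p of 1 in limma. Leaving out rapamycin replicate 2 took the difference to 0.20. The lean of the other genes did not hang on Myc: of the 38 without it, 30 measured higher, with a median of 0.07.

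Promoters were searched for the E-box, the motif that MYC and MAX bind, because the list joins MYC with genes it is known to control. RefSeq windows of build GRCm38.p6, from 250 bases before to 50 after each annotated start, were found for 33 of the 40 listed genes. The windows of Myc, Npm1, Fbl, Tcof1, Bop1, Rrs1 and Rrp12 were not analysed here. The motif CACGTG, which reads the same on both strands, lay in a window of 7 of these 33 genes (21.2%), namely Rrn3, Nop2, Pes1, Utp20, Wdr43, Nle1 and Mybbp1a. Over all 27025 genes with a window the share was 8.09%. It was 12.1% for genes in the upper 50% of expression on these arrays and 10.8% for array genes whose windows had a GC content of 55.1% to 66%, the middle range of the member windows. A second motif, CCGGAAG on either strand, a sequence of the ETS type, lay in windows of 12 of the 33 genes (36.4%). The share was 9.93% of all genes, 22.1% of the upper 50% by expression and 18.3% of array genes with windows in that GC range. The member shares of both motifs count every member window, also those outside that GC range, so they are not matched for GC. Other forms of the ETS motif were not counted. The letters of both motifs cannot overlap each other. A match is a run of letters and does not show that a factor was bound. Rrn3 holds 2 E-boxes, starting at -215 and -48 from the first transcribed base, and 2 ETS motifs, and Nop2 one of each, the E-box at -60. In the other 5 genes the E-box lies inside the transcribed part and not before the start, at 3 (Pes1), 18 (Wdr43), 24 (Nle1), 38 (Utp20) and 41 (Mybbp1a). Nip7, which has the second largest difference of the list, holds no E-box and 2 ETS motifs, at -103 and 9. Windows are printed for the 2 genes with an E-box before the start, for Pes1 and Utp20 as examples of one after it, and for Nip7 as a member without one. Capitals mark both motifs in the windows of Rrn3 (chr16:13780449-13780748, plus strand), Nop2 (chr6:125131633-125131932, plus strand), Pes1 (chr11:3963725-3964024, plus strand), Utp20 (chr10:88826765-88827064, minus strand) and Nip7 (chr8:107056627-107056926, plus strand), each written 5′ to 3′ along its gene.
Rrn3: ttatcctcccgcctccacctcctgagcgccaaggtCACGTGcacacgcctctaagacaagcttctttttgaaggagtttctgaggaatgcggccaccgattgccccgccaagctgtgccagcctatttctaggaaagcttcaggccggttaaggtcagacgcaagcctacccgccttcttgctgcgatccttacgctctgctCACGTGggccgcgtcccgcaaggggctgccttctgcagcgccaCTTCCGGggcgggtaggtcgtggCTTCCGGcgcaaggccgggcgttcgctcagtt
Nop2: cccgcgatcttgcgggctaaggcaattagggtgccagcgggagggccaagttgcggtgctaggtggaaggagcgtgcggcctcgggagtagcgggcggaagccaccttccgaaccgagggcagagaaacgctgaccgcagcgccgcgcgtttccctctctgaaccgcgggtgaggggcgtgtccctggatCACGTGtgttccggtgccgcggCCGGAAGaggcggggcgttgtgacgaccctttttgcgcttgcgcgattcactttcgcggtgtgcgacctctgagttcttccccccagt
Pes1: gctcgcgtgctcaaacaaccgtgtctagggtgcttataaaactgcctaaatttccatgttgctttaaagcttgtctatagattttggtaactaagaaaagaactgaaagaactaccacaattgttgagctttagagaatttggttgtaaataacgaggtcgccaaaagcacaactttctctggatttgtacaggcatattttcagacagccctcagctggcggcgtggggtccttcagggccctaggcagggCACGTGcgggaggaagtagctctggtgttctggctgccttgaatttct
Utp20: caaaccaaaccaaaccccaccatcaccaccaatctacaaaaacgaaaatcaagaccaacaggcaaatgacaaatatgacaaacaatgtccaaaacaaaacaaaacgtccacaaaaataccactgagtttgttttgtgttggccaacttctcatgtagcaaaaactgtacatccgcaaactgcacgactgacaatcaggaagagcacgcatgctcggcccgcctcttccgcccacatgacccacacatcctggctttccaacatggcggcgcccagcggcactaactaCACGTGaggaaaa
Nip7: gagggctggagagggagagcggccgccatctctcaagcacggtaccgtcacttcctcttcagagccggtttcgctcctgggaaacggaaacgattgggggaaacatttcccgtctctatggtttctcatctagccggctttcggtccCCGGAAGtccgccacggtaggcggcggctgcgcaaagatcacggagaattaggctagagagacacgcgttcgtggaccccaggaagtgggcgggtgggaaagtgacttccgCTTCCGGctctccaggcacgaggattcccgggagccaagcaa
The difference between genes with and without the motif was not tested. The 7 genes with an E-box were higher with rapamycin in 7 of 7 cases, from 0.01 to 0.15 with a median of 0.08. Of the 25 measured genes whose windows lacked it, 19 were higher, with a median of 0.09 and a range of -0.11 to 0.16.

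RNA polymerase I and its factors showed no common direction. Of 7 measured genes, 4 were higher and 3 lower, with a median of 0.01 and a range of -0.15 to 0.13. Polr1a and Polr1b, which encode the catalytic core subunits, differed by 0.10 and 0.13, and Polr1c, a subunit shared with RNA polymerase III, by 0.13. Polr1c measured 9.23, 9.18 and 9.32 with PBS and 9.27, 9.57 and 9.27 with rapamycin. Only rapamycin replicate 2 lay above the PBS range, and the interval of the difference was -0.10 to 0.36. Rrn3, the initiation factor through which mTOR signalling is known to reach RNA polymerase I, differed by 0.01 (SE 0.09). Ubtf, the architectural factor that coats active ribosomal DNA, differed by -0.07 (SE 0.08), and the polymerase subunit gene Polr1e by -0.08 (SE 0.10).

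Tcof1 was the lowest member. It encodes treacle, a nucleolar protein that supports ribosomal DNA transcription. It measured 9.56, 9.61 and 9.64 with PBS and 9.44, 9.53 and 9.40 with rapamycin. The treated mice were all below the lowest control, a pattern that 6.28% of all genes showed in this direction. The difference was -0.15 (SE 0.08, 95% interval -0.32 to 0.02), with an unadjusted p of 0.0774 and an adjusted p of 1.

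Genes that organise the nucleolus were mostly slightly higher. Of 6, 5 were positive, with a median of 0.09. Gnl3, which encodes the GTP-binding protein nucleostemin, had the largest difference of this group. It measured 8.57, 8.93 and 8.69 with PBS and 8.79, 9.04 and 8.80 with rapamycin, a difference of 0.15 (SE 0.11, 95% interval -0.11 to 0.41). PBS replicate 2 lay above rapamycin replicates 1 and 3, so the groups overlapped. Ddx21, an RNA helicase of the nucleolus, was the one negative member. It measured 9.99, 10.22 and 10.05 with PBS and 10.00, 10.14 and 10.03 with rapamycin, a difference of -0.03 (SE 0.09) well inside the spread of the mice. The abundant nucleolar proteins nucleolin and nucleophosmin gave differences of 0.11 (Ncl, SE 0.10) and 0.01 (Npm1, SE 0.08). Nolc1, a chaperone of snoRNPs, differed by 0.10 and Mybbp1a, a nucleolar transcription regulator, by 0.08.

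The genes for proteins of box C/D snoRNPs, particles that mostly guide methylation of ribosomal RNA, included 3 positive of 4. Nop58, a core scaffold of the particle, measured 9.90, 10.08 and 10.07 with PBS and 10.11, 10.30 and 9.95 with rapamycin. Rapamycin replicate 3 lay inside the PBS range, and the difference was 0.10 (SE 0.11). Its partner Nop56 differed by 0.05 (SE 0.11), with 11.53 in rapamycin replicate 2 against 11.12 and 11.22 in the other 2 treated mice. Rrp9, a protein of the U3 particle needed to cleave the precursor, measured 8.10, 8.28 and 8.25 with PBS and 8.17, 8.17 and 7.96 with rapamycin. Rapamycin replicate 3 was the lowest mouse, the others lay within the PBS range, and the difference was -0.11 (SE 0.09). Fbl encodes fibrillarin, the methyltransferase itself, and was read by 2 probe sets. The one with the higher mean gave 0.09 and the other 0.06, but they ordered the mice differently. Rapamycin replicate 1 was highest on the first, at 9.38, and second lowest on the other, at 8.40, so the level of a single mouse is uncertain for this gene. RefSeq lists a pseudogene of Fbl, and the probe table, which gives both probe sets the same gene, does not tell whether the one used reads Fbl or such a copy.

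All 3 box H/ACA genes, whose particle converts uridine to pseudouridine, were higher by 0.05 to 0.08. Dkc1, the pseudouridine synthase dyskerin, measured 9.55, 9.69 and 9.77 with PBS and 9.51, 9.98 and 9.77 with rapamycin. One treated mouse was the lowest of all and another the highest, and the difference was 0.08 (SE 0.13). Nhp2, a small RNA-binding subunit, varied least of the 3. It measured 8.69, 8.71 and 8.70 with PBS and 8.77, 8.76 and 8.72 with rapamycin. The groups did not overlap, as in 3.14% of all genes in this direction. The difference was 0.05 (SE 0.07, 95% interval -0.11 to 0.21), where limma's SE borrows from the spread of other genes. Gar1, another subunit, differed by 0.05 (SE 0.10).

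Small subunit processing factors were higher in 5 of 7 genes, with a median of 0.09. Utp20, a large scaffold of the small subunit processome, measured 8.20, 8.57 and 8.17 with PBS and 8.49, 8.55 and 8.36 with rapamycin. PBS replicate 2 was the highest of all 6 mice, and the difference was 0.15 (SE 0.12, 95% interval -0.12 to 0.42). Heatr1, also part of the processome and needed for ribosomal DNA transcription, measured 9.27, 9.41 and 9.36 with PBS and 9.50, 9.48 and 9.43 with rapamycin. Its groups did not overlap, with a difference of 0.12 (SE 0.08, unadjusted p of 0.140, adjusted p of 1 in limma). Rrp12, which takes part in subunit export, measured 8.19, 8.36 and 8.16 with PBS and 8.18, 8.22 and 8.17 with rapamycin. The treated mice lay within the PBS range, and the difference was -0.05 (SE 0.08). The processome genes Wdr43 and Nop14 differed by 0.10 and 0.09, Noc4l by 0.00 and the helicase gene Ddx10 by -0.01.

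Large subunit assembly factors were higher in 10 of 11 genes, with a median of 0.07. Nip7, a factor of early large subunit maturation, measured 7.97, 8.04 and 8.04 with PBS and 8.19, 8.19 and 8.15 with rapamycin. Every treated mouse lay above every PBS mouse. The difference was 0.16 (SE 0.07), with a 95% interval from just under 0 to 0.33, an unadjusted p of 0.0502 and an adjusted p of 1 in limma. Bop1 was the one negative gene. It encodes a scaffold that forms the PeBoW complex with the products of Pes1 and Wdr12. Bop1 measured 9.87, 9.94 and 10.02 with PBS and 9.71, 10.07 and 9.94 with rapamycin, and the treated mice spanned the PBS range on both sides, with a difference of -0.03 (SE 0.10). Its partners differed by 0.07 (Pes1, SE 0.10) and 0.15 (Wdr12, SE 0.09). A second probe set of Wdr12 gave 0.16, but the order of the mice differed: rapamycin replicate 3 was highest on the one used, at 8.62, and PBS replicate 2 on the other, at 7.36. As for Fbl, the probe table does not tell which of them reads the gene itself and which, if any, a near-identical copy. Nop16, a nucleolar factor known as a MYC target, differed by 0.14 (SE 0.09) and Rrp1b by 0.10 (SE 0.11). Of the remaining genes, Ftsj3 differed by 0.01, Nop2 by 0.03, Rrs1 by 0.05 and Nle1, a factor of late large subunit maturation, by 0.09. Wdr74 varied most, from 9.51 in rapamycin replicate 1 to 10.12 in rapamycin replicate 3 for a difference of 0.04. Over the whole list, groups did not overlap for 3 higher genes (Nhp2, Heatr1 and Nip7) and 1 lower gene (Tcof1) of 39. Of all genes, 3.14% were higher and 6.28% lower without overlap, or 9.42% in both directions. The members are near that share only with both directions counted together. By direction, a larger share of them was higher and a smaller share lower than of all genes, which was not tested.

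**Figure D2:**
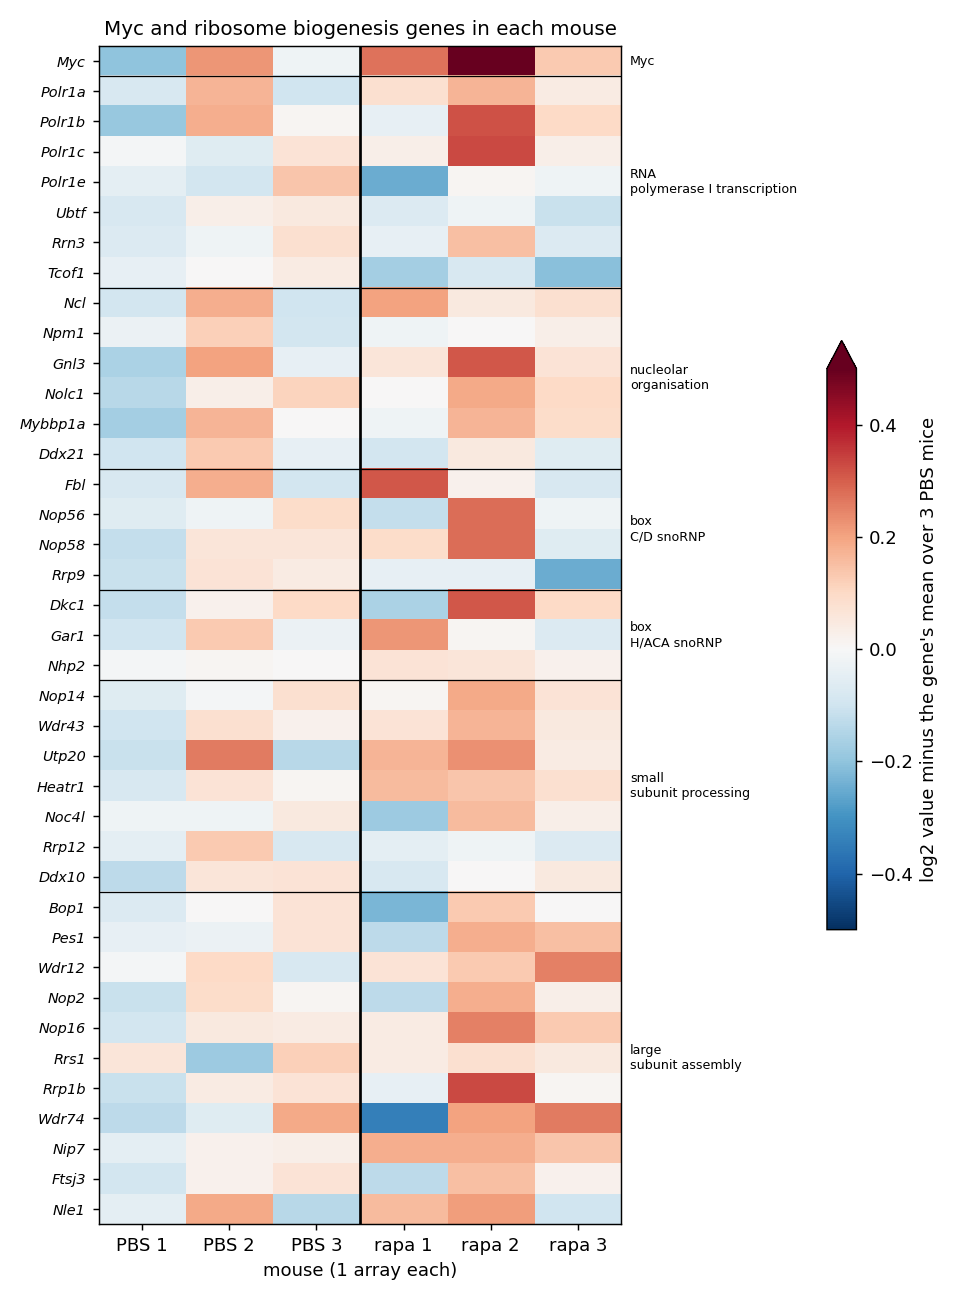
Each cell gives the log2 value of 1 gene in 1 mouse minus the gene's mean over the 3 PBS mice, with genes in rows by step and mice in columns; the colour scale ends at 0.5, and Myc in rapamycin replicate 2 lies beyond it at 0.77. The column of rapamycin replicate 2 is red in most rows and the column of PBS replicate 1 mostly blue.

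Mice differed from each other in these genes as much as the groups did. Rapamycin replicate 2 had the highest value of all 6 mice for 20 of the 39 members (51.3%), against 16.9% of all genes, and the lowest for 0. PBS replicate 1 had the lowest value for 16 members (41.0%), against 16.2% of all genes, and the highest for 0. The median member lay 0.17 above its PBS mean in rapamycin replicate 2. It lay at -0.02 in rapamycin replicate 1 and 0.03 in rapamycin replicate 3, within the -0.08 to 0.06 that the PBS mice spanned. Over all genes the same medians were -0.02 to 0.02. Rapamycin replicate 1 was highest for 5 members (12.8%, against 19.3% of all genes) and lowest for 9 (23.1%, against 23% of all genes). The first share is below that of all genes and the second close to it. The mean over the 38 genes without Myc was 9.02, 9.16 and 9.12 with PBS and 9.09, 9.25 and 9.13 with rapamycin, so the groups overlapped and differed by 0.05.

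Further genes of the pathway, from lists that do not overlap the members, gave the same picture of no calls and small differences. Of 72 further ribosome biogenesis factors, 50 were higher (69.4%) and 0 passed, with a median of 0.05. Rrp15, a large subunit factor, had the smallest p, with a difference of 0.22 (SE 0.08, unadjusted p of 0.0265, adjusted p of 1 in limma), and Tsr3, an enzyme that modifies the small subunit RNA, differed by -0.18 (SE 0.09). The list mean was highest in rapamycin replicate 2, at 0.15 above the PBS mean, and lowest in PBS replicate 1, at -0.08, the mice at the ends of the member list as well. Of 27 further subunits and factors of RNA polymerases I and III, 9 were higher and 18 lower, with a median of -0.02 and 0 calls. There Polr3d differed by 0.22 (SE 0.11) and Polr3c by -0.14 (SE 0.09). Of 22 further MYC targets outside the ribosome, 15 were higher, with a median of 0.03 and 0 calls. Tfrc, the transferrin receptor, differed by 0.30 (SE 0.15), and Apex1, a DNA repair enzyme, by 0.22 (SE 0.12).

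Most genes of the dimerisation network around MYC measured lower. Of 12 measured genes, 11 were lower with rapamycin and 0 passed, with a median of -0.08 and a range of -0.21 to 0.00. The share higher was 8.33%, against 44.7% of all genes. Mxd4, a MAX partner that represses MYC target genes, measured 9.18, 9.18 and 9.29 with PBS and 9.04, 8.96 and 9.02 with rapamycin. All treated mice lay below all PBS mice, and the difference was -0.21 (SE 0.08, unadjusted p of 0.0205, adjusted p of 0.982 in limma). Max itself differed by -0.09 (SE 0.09), the repressors Mxd1 and Mxd3 by -0.11 and -0.13 and Mnt by -0.07. Mxi1, Zbtb17 and Mga of the same list were nearly flat, at -0.01, -0.02 and 0.00. The MYC paralogues Mycn and Mycl differed by -0.04 and -0.14, at PBS means of 5.81 and 5.89, below the median level of 6.37 over all genes. The list mean lay at 8.28, 8.26 and 8.25 in the PBS mice and at 8.18, 8.19 and 8.17 in the treated mice, without overlap. How often the means of such lists do not overlap was not tested. Of its single genes, 1 of 12 (Mxd4) was lower without overlap, where 6.28% of all genes were.

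**Figure D3:**
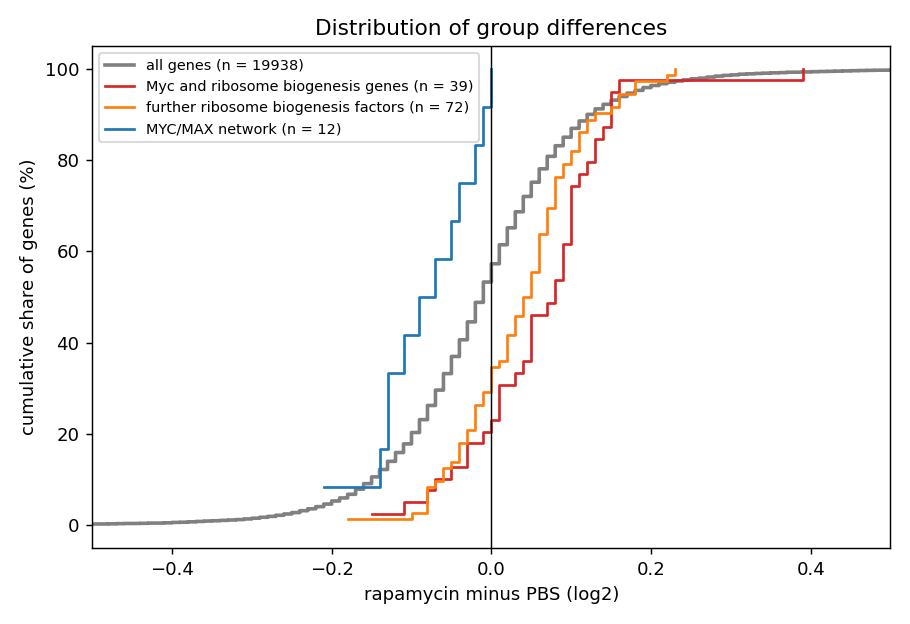
The curves give the cumulative share of genes (%) against the group difference (log2, rapamycin minus PBS), cropped at 0.5 on either side, for all 19938 genes, the 39 members, 72 further ribosome biogenesis factors and 12 MYC/MAX network genes. The curve of the members lies to the right of that of all genes over most of the range (medians 0.08 and -0.01), and that of the MYC/MAX network to the left (median -0.08).

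Activation and division genes, with which MYC is known to be linked in T cells, did not move as one. Of 18 activation genes, 9 were higher and 9 lower, with 0 calls. Il2ra, the alpha chain of the interleukin 2 receptor, had the smallest p, with 10.33, 10.63 and 10.37 with PBS and 10.68, 11.04 and 10.73 with rapamycin. Its groups did not overlap, and the difference was 0.37 (SE 0.12, unadjusted p of 0.0156, adjusted p of 0.982 in limma). Egr2, an activation-induced transcription factor, differed by 0.54 (SE 0.21). The mean of the activation list was lowest in PBS replicate 1 (-0.16 from the PBS mean) and highest in rapamycin replicate 2 (0.32), as for Myc. Mitosis genes were lower in 19 of 19, with a median of -0.08 and 0 calls, Plk1 at -0.23 (SE 0.09) and Hmmr at -0.18 (SE 0.08). Their list mean was highest in PBS replicate 1 and lowest in rapamycin replicate 2, the reverse of the member list. What these orders mean for the members was not tested.

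Markers of granulocytes and macrophages had median levels of 8.16 and 7.76, above the 6.37 over all genes, and varied between mice. The erythroid and B cell lists had median levels of 5.70 and 5.29, below that of all genes. Of 19 granulocyte markers 17 were higher, with a median of 0.44, 0 calls and list means of 7.77 to 8.96 with PBS and 8.30 to 9.31 with rapamycin. Lcn2 and Chil3, secreted granule and myeloid proteins, measured 12.20 and 11.90 with PBS and 12.64 and 12.52 with rapamycin, and Elane, neutrophil elastase, 8.58 and 9.19. The granulocyte mean was highest in rapamycin replicate 1, while rapamycin replicate 2, highest for Myc and for the members, lay 0.15 below the PBS mean. With the granulocyte mean as a covariate, 32 of 39 members were higher, with a median of 0.09. Of 15 macrophage markers 13 were lower, with a median of -0.36, 0 calls and list means of 7.69 to 8.29 with PBS and 7.39 to 7.80 with rapamycin. The macrophage mean was highest in PBS replicate 1, at 0.34 above the PBS mean, and lowest in rapamycin replicate 2, at -0.56. At these ends the order is the reverse of the member list. Spic, a factor of red pulp macrophages, differed by -1.34 (SE 0.19, adjusted p of 0.408 in limma), whereas Lyz2 and Cd68 differed by 0.29 and -0.01, and Ms4a7 by -0.26. Of 17 listed erythroid markers 10 were measured, of which 9 were higher, with a median of 0.09. Their list means did not overlap (5.88 to 5.95 for PBS, 5.96 to 6.22 for rapamycin), the highest being rapamycin replicate 2. No background share for list means was computed. Slc4a1, the anion exchanger of red cells, differed by 0.45 (SE 0.25), Epb42 by 0.31 and Sptb by 0.06. Of 13 B cell markers 6 were higher and 7 lower, with list means of 5.37 to 5.56 and 5.28 to 5.43. Fcrl1 differed by -0.89, Cd79b by -0.54 and Cd22 by 0.01, and Ms4a1, a defining B cell gene, lay near the lower end of the scale at 3.88 and 3.93. T cell markers were higher in 4 and lower in 7 of 11, with a median of -0.03, Cd5 at -0.19 and Cd8b1 at -0.13. The part of granulocyte, macrophage, erythroid and B cell RNA in the member values was not tested. With 6 arrays, the fit with the granulocyte covariate cannot decide it for granulocytes.

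**Figure D4:**
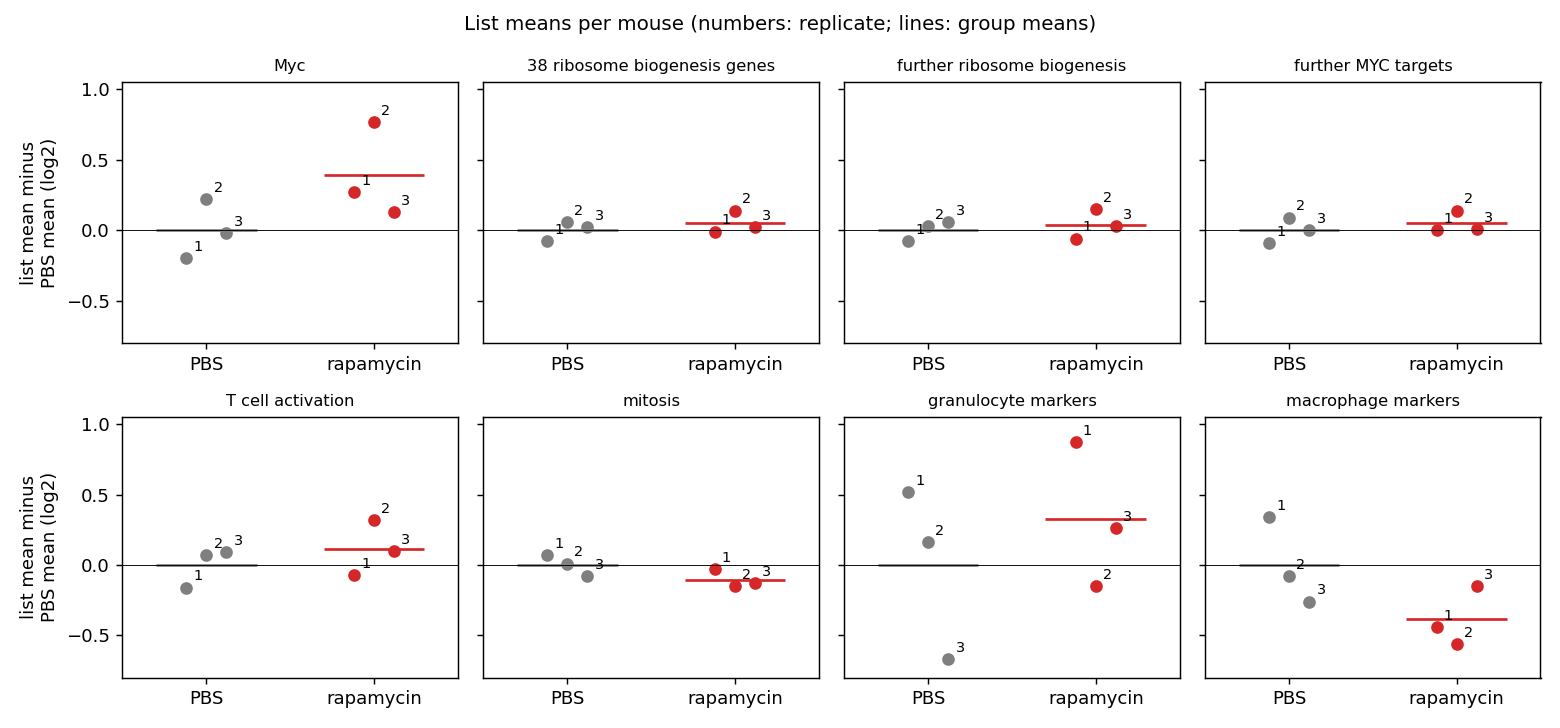
Each point is 1 mouse, numbered by replicate, at its mean over a gene list minus the mean of the PBS mice (log2), with PBS in grey, rapamycin in red and a line at each group mean. Rapamycin replicate 2 is the highest point for Myc (0.77), for the 38 ribosome biogenesis genes (0.14) and for T cell activation (0.32). It is the lowest for mitosis (-0.15) and for macrophage markers (-0.56). The granulocyte means spread most, from -0.67 to 0.87.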

How the data were processed

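RNA of CD3+ spleen cells from 3 PBS and 3 rapamycin mice was hybridised to whole-transcript arrays. Affymetrix Expression Console with RMA is named in the submitters' processing notes. Software versions: not given in the sources used here. As deposited by the authors, values are on a log2 scale. RMA as a method corrects background, normalises probes between arrays and summarises probe sets, and compresses weak signals; how it was set here is unknown. Of 35556 probe sets, 21789 had 1 gene symbol in the platform's table, which can be old, 1621 had several and 12146 were not listed. RefSeq (GRCm38.p6) held the gene identifier of 21698 of these single-symbol probe sets and changed 0 symbols. Npm1 also had 3 probe sets shared with a second symbol, which were not used.

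Groups come from the sample titles, which call the mice biological replicates. Differences were fitted with limma 3.58.1 in R 4.3.3 by lmFit and eBayes with a group term alone (8.44 degrees of freedom), two-sided, with Benjamini-Hochberg adjustment over 19938 genes and a call at 0.05. The test was checked on simulated data with added differences larger than any of the list, so the check does not cover differences of the size reported here. Members, lists and tests were chosen with earlier results of these data known, so lists are described by counts and medians without a test. By rule, every mouse's value is given for Myc, for members at an unadjusted p under 0.05 or without overlap, and for the highest and lowest of each role group. Pathway lists name the 2 smallest p, and marker lists also the 2 highest levels. Max, Mxd1, Mxd3, Mnt, Mxi1, Zbtb17, Mga, Mycn and Ms4a1, and single mice of Nop56, Fbl, Wdr12 and Wdr74, were picked after their values were seen. Alternatives were leaving out each mouse, a replicate block, array weights, leaving out the lowest 50% of genes, array centring, the mean of a gene's probe sets, a variance trend and the granulocyte mean as a covariate.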

Additional observations from a re-analysis of the deposited data

How the results depend on the processing

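Under all 13 alternatives 0 members passed the adjusted threshold. The count of genes called over the whole array was 0 to 7 when 1 mouse was left out (7 without rapamycin replicate 1), 0 with the replicate block and 3 with the granulocyte covariate, against 1. Members at an unadjusted p under 0.05, 0 as reported, numbered 0 to 2 when 1 mouse was left out, 1 with the replicate block (Myc), without the lowest 50% of genes and with the mean of a gene's probe sets (Nip7 in both), 2 with array weights, array centring and the variance trend (Myc and Nip7), and 3 with the granulocyte covariate (Myc, Nip7 and Nop16). The count of 0 is therefore close to the threshold for Myc and Nip7. With the replicate block, Myc had an unadjusted p of 0.00765 and an adjusted p of 0.809 in limma. Deviations of same-numbered mice over all genes correlated at 0.086, -0.19 and 0.19, and those of differently numbered mice at -0.44 to 0.37. With 3 mice per group these values cannot decide whether the numbers pair the mice, so no stronger effect is read from the block. Members higher ranged from 23 to 32 and their median from 0.03 to 0.11 when 1 mouse was left out.

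Of the 39 members, 22 kept their sign under every alternative that could be run and 17 did not, and Myc ranged from 0.20 to 0.52. With 1 mouse left out, the ranges of those that turned were -0.05 to 0.05 (Rrn3), -0.04 to 0.07 (Npm1), -0.01 to 0.16 (Mybbp1a), -0.08 to 0.03 (Ddx21), -0.03 to 0.17 (Fbl), -0.07 to 0.13 (Nop56), -0.03 to 0.21 (Dkc1), -0.03 to 0.12 (Gar1), -0.07 to 0.10 (Noc4l), -0.09 to 0.02 (Rrp12), -0.08 to 0.02 (Ddx10), -0.11 to 0.07 (Bop1), -0.05 to 0.11 (Nop2), -0.04 to 0.12 (Rrs1), -0.01 to 0.17 (Rrp1b), -0.07 to 0.23 (Wdr74) and -0.06 to 0.08 (Ftsj3). Array weights turned Ddx10 to 0.03 and Bop1 to 0.03, and the granulocyte covariate Npm1 to -0.01, Ddx10 to 0.03 and Bop1 to 0.04. The cause was not tested. Rrs1 has no value without the lowest 50% of genes, being one of them. Detection calls were not used here, and differences of this size lie near the standard error that 3 arrays per group give.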
